A study of Homo sapiens with 2 samples.

Results

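The aldo-keto reductases described here are 10 genes taken by symbol from a count table of 19927 gene symbols, and all 10 were found in it. They are AKR1A1, AKR1B1, AKR1B10, AKR1B15, AKR1C1, AKR1C2, AKR1C3, AKR1C4, AKR1D1 and AKR7A2. The set was selected on the homochlorcyclizine over DMSO ratios of these same libraries, which were known when it was chosen, so its differences between conditions are given as descriptions that support nothing further. Libraries of poly(A) mRNA came from Huh7, an established human hepatocellular carcinoma cell line. In the homochlorcyclizine (HD) group the cells spent 48 h in medium with homochlorcyclizine dihydrochloride, a piperazine-type antihistamine at a dose that the sources used here do not state. In the DMSO group they spent 48 h with the solvent alone. Each group is 1 library of 1 culture, so no test between conditions can be made and the spread between cultures is unknown. Every interval below is a 95% interval for counting error only.

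Aldo-keto reductases are mostly monomeric cytosolic enzymes that use NADPH to reduce aldehydes and ketones to alcohols. Their substrates include sugars, lipid-derived aldehydes, steroids, prostaglandins, bile acid precursors and drugs, and the liver is a main site of the steroid and bile acid branches. Several of them, among them AKR1B10 and AKR1C1 to AKR1C3, are known targets of NRF2, the transcription factor of the oxidative stress response.

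The HD library held 40791119 counts and the DMSO library 38133894. The 10 genes took 31259 counts (0.0766% of the library) with HD and 16281 counts (0.0427%) with DMSO. All 15 hepatocyte markers examined were detected in both libraries at 27.4 CPM or more with HD and 30.7 CPM or more with DMSO, where CPM scales counts to library size with TMM factors, and they summed to 23348 CPM with HD and 25229 CPM with DMSO. Among markers of other cell types, KDR and TEK (endothelium), COL1A2 (fibroblasts) and KRT7 (bile duct cells) had 0 counts in both libraries. The 5 bile duct markers summed to 537 CPM with HD and 438 CPM with DMSO, and the 5 blood cell markers to 530 CPM with HD and 450 CPM with DMSO. Of the bile duct sum, SOX9 made 347 CPM with HD and 279 CPM with DMSO, and KRT19 made 188 CPM with HD and 156 CPM with DMSO. Of the blood cell sum, LYZ, lysozyme, made 527 CPM with HD and 446 CPM with DMSO. The 5 endothelial markers summed to 5.92 CPM with HD and 12.0 CPM with DMSO, and the 5 fibroblast markers to 10.7 CPM with HD and 11.8 CPM with DMSO. PECAM1 made most of the endothelial sum, at 5.63 CPM with HD and 11.7 CPM with DMSO (ratio 0.482, 0.409 to 0.566). COL1A1 made most of the fibroblast sum, at 8.92 CPM with HD and 8.40 CPM with DMSO, whereas COL3A1 had 5 counts with HD and 43 with DMSO (ratio 0.109, 0.0337 to 0.275) and ACTA2 had 8 counts with HD and 50 with DMSO (ratio 0.150, 0.0615 to 0.319). All these markers were measured in a cell line, so their counts are no evidence of other cell types in the cultures. The part of these markers in the results was not tested, and a bulk library cannot tell fewer expressing cells from less RNA per cell.

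Below, higher or lower means that the HD over DMSO ratio of scaled counts was at least 2-fold and that its interval excluded 1, for genes averaging 1 CPM or more across the pair of libraries. Of the 10 genes, 9 passed that level and AKR1B15 did not. AKR1B10 passed it only through the HD library, since its DMSO level was 0.340 CPM. AKR1B10, AKR1C1 and AKR1C2 were higher with HD, none was lower and 6 passed in neither direction. Over all 12353 genes at the same level, 5.88% were higher and 5.17% were lower. The median log2 ratio of the 9 genes was -0.10, against -0.01 over all genes, while their mean was 0.55. The family was therefore divided, with 3 genes far above 1, AKR1A1, AKR1B1, AKR1D1 and AKR7A2 close to 1, and AKR1C3 and AKR1C4 below 1.

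**Figure D1:**
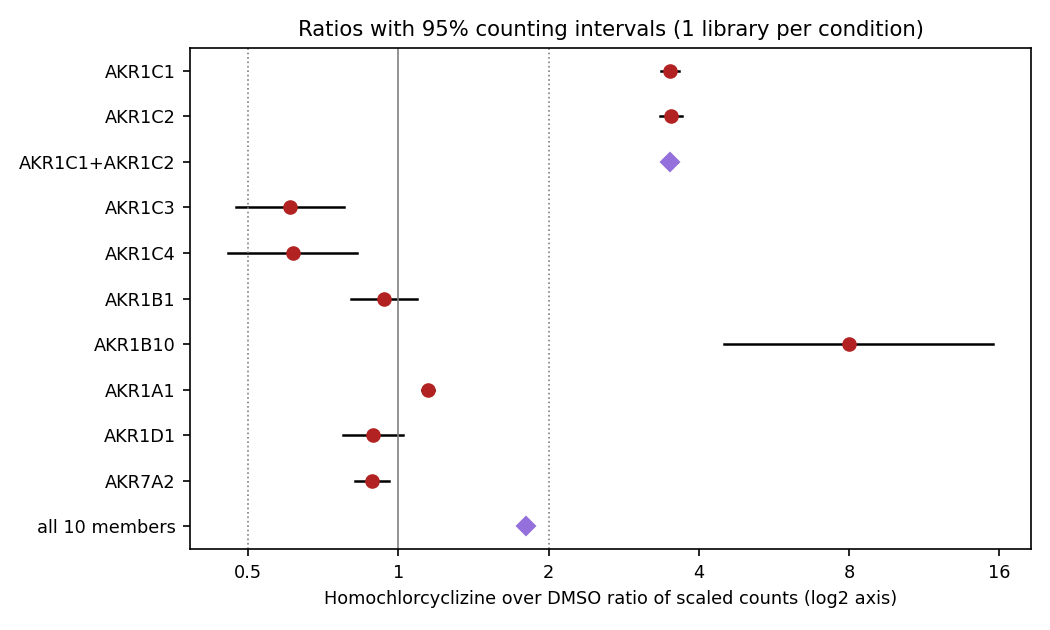
The HD over DMSO ratio of scaled counts (log2 axis) for 9 aldo-keto reductase genes and 2 sums, with 95% counting intervals as lines, circles for genes and diamonds for sums. Dotted lines mark 2-fold in each direction; AKR1C1, AKR1C2 and AKR1B10 lie beyond the upper one, and AKR1C3 (0.607) and AKR1C4 (0.615) lie between the lower one and 1.

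The AKR1C enzymes reduce keto groups of steroid hormones, prostaglandins and bile acid precursors. AKR1C1, which inactivates progesterone (chromosome 10, 4963415 to 4983283 on GRCh38.p14), had 10191 counts with HD and 2734 with DMSO, or 250 CPM with HD and 71.5 CPM with DMSO. Its ratio was 3.50 (3.35 to 3.65). AKR1C2, which inactivates dihydrotestosterone and binds bile acids (chromosome 10, 4987775 to 5018000), had 7649 counts with HD and 2040 with DMSO, or 188 CPM with HD and 53.4 CPM with DMSO. Its ratio was 3.52 (3.35 to 3.70). Both mRNAs thus stood about equally far above their DMSO level, and the ratio of the 2 ratios was 0.994 (0.932 to 1.06).

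These genes are close copies, which matters for the counts, and a stretch of their coding sequences shows how close. In coding sequences from GENCODE release 29, AKR1C1 and AKR1C2 differed at 19 of 969 bases (98.0% identical). The stretch with the most differences between them, coding bases 103 to 162, is shown 5′ to 3′ for the 4 AKR1C genes, with capitals where a base differs from AKR1C1.
AKR1C1: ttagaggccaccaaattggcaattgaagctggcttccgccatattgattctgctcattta
AKR1C2: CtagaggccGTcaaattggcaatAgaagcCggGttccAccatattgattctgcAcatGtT
AKR1C3: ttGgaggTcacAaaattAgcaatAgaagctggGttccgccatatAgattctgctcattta
AKR1C4: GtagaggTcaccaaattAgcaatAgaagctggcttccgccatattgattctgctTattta
Of the 19 coding differences between AKR1C1 and AKR1C2, 10 fall within these 60 bases. Of the 870 windows of 100 bases in the AKR1C1 coding sequence, 164 (18.9%) also occur letter for letter in the AKR1C2 transcript, so reads of that length from these windows fit both genes. The share of windows also found in any other member was 20.7% for AKR1C1, 26.4% for AKR1C2, 9.77% for AKR1C3 and 0.690% for AKR1C4. Of the AKR1C2 windows, 72 (8.28%) also occur in the AKR1C3 transcript. Windows outside the coding sequences were not taken, so these shares do not measure how much of the counts fits another gene as well.

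How reads that fit both genes were counted is not stated in these sources, and AKR1C1 and AKR1C2 were therefore also summed. The sum was 17840 counts with HD and 4774 with DMSO, or 438 CPM with HD and 125 CPM with DMSO, a ratio of 3.51 (3.40 to 3.62). AKR1C1 took 57.1% of the pair's counts with HD (56.4 to 57.9, exact Clopper-Pearson interval) and 57.3% with DMSO (55.9 to 58.7). The split between them was thus nearly the same in both libraries, and whether shared reads set that split was not tested. All 4 AKR1C genes summed to 443 CPM with HD and 132 CPM with DMSO, a ratio of 3.34 (3.24 to 3.45), of which AKR1C1 and AKR1C2 made nearly everything.

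AKR1C3, which forms testosterone from androstenedione and also makes prostaglandin F (chromosome 10, 5048781 to 5107686), had 110 counts with HD and 170 with DMSO, or 2.70 CPM with HD and 4.45 CPM with DMSO. Its ratio was 0.607 (0.473 to 0.777). AKR1C4, a liver-specific enzyme of steroid and bile acid reduction (chromosome 10, 5196837 to 5218949), had 78 counts with HD and 119 with DMSO, or 1.92 CPM with HD and 3.11 CPM with DMSO. Its ratio was 0.615 (0.456 to 0.825). Both ratios lay below 1 by more than counting error and within 2-fold, and an interval wholly below 1 was also found in 40.0% of all genes at that level.

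The separation within the cluster does not depend on how the libraries are scaled, because both genes of a pair share the same scaling. AKR1C1 and AKR1C2 together had 162 counts for each count of AKR1C3 with HD and 28.1 with DMSO, a 5.78-fold difference (4.53 to 7.36). For each count of AKR1C4 they had 229 with HD and 40.1 with DMSO, a 5.70-fold difference (4.28 to 7.60). AKR1C3 had 1.41 counts per count of AKR1C4 with HD and 1.43 with DMSO, a ratio of 0.987 (0.680 to 1.43), so the low pair did not separate beyond counting error.

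**Figure D2:**
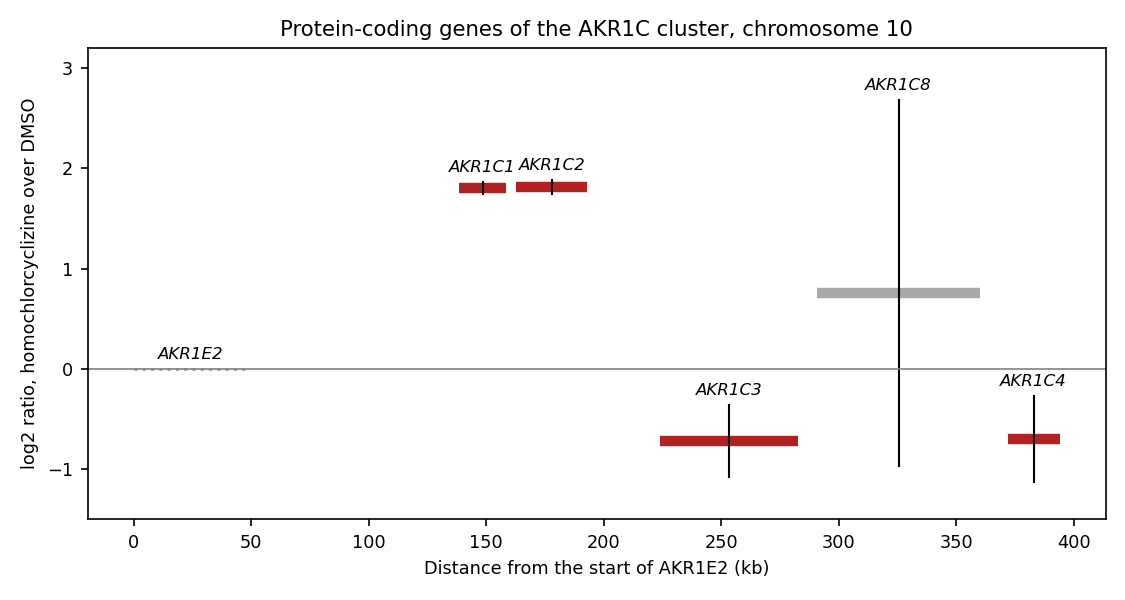
The 6 protein-coding genes of the AKR1C cluster by distance in kb from the start of AKR1E2, against the log2 ratio of HD over DMSO. Bars span each gene, vertical lines are 95% counting intervals, grey marks genes with few counts, and the dotted line at 0 marks AKR1E2, which has no ratio; AKR1C1 and AKR1C2 sit near 1.81 and AKR1C3 and AKR1C4 near -0.72 and -0.70.

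Along the chromosome the 2 higher genes are neighbours, and the low pair lies further along. AKR1C8, between AKR1C3 and AKR1C4, had 9 counts with HD and 5 with DMSO, a ratio of 1.69 whose interval of 0.509 to 6.42 covers both directions. AKR1E2, at the other end, had 0 counts with HD, which allows up to 0.0737 CPM, and 2 counts with DMSO. Outside the cluster, TUBAL3, an alpha-tubulin-like gene, was at 1.55 CPM with HD and 1.99 CPM with DMSO, a ratio of 0.778 (0.548 to 1.10). KLF6, a zinc finger transcription factor at the other flank, was at 333 CPM with HD and 189 CPM with DMSO, a ratio of 1.76 (1.71 to 1.81).

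The 250 bases before 1 RefSeq start of each AKR1C gene on GRCh38.p14 are shown to compare the copies. The intervals are chr10:4963165-4963414 on the plus strand for AKR1C1, chr10:5003858-5004107 on the minus strand for AKR1C2, chr10:5048531-5048780 on the plus strand for the first of 2 AKR1C3 starts, and chr10:5196587-5196836 on the plus strand for AKR1C4. The AKR1C2 start lies inside the annotated span of that gene. Capitals mark matches to the CCAAT box (CCAAT, or ATTGG on the other strand) and to the TATA box (TATAAA, or TTTATA on the other strand).
AKR1C1: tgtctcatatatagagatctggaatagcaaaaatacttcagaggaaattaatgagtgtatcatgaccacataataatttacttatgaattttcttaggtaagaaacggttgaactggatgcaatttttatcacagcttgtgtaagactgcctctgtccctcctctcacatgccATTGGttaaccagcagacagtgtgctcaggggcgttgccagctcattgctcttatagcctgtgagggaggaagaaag
AKR1C2: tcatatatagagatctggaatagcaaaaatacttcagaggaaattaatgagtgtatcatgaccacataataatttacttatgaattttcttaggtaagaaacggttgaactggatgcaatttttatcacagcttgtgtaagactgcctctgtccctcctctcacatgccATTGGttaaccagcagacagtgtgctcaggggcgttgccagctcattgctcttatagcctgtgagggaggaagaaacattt
AKR1C3: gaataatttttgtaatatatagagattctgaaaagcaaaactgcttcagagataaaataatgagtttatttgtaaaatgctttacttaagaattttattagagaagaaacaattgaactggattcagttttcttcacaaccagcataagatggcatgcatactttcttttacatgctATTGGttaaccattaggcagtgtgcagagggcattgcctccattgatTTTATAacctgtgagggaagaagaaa
AKR1C4: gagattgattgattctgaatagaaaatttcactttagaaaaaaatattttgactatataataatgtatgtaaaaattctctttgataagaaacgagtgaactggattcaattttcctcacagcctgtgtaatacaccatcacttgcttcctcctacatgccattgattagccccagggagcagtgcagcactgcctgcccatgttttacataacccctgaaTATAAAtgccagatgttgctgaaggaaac
AKR1C1 and AKR1C2 matched at 245 of 246 aligned bases (99.6%). AKR1C1 matched the first AKR1C3 window at 76.8% of aligned bases, the second at 79.1% and the AKR1C4 window at 68.0%. Whether upstream sequence has a part in the ratios was not tested.

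A total of 4 motifs was searched on both strands of these upstream windows, and no match overlapped a match of another motif. Windows were on hand for 8 of the 10 genes, without AKR1B10 and AKR1B15. The antioxidant response element core TGACNNNGC, which NRF2 binds with small MAF proteins, matched in AKR7A2 alone of the 8, and in 15.9% of 10134 genes at the same expression level with a window. The CCAAT box matched in 4 of the 8 (AKR1B1, AKR1C1, AKR1C2 and AKR1C3) and in 41.8% of all these genes. TATAAA matched in AKR1C3 and AKR1C4, against 8.24% of all genes, and the core TGATGNAA, bound by ATF4 with C/EBP proteins, matched in AKR1D1, against 2.44%. A match is only a run of letters, and elements further from the start lie outside these windows.

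The AKR1B enzymes reduce sugars, retinal and lipid aldehydes. AKR1B10, known for its rise in hepatocellular carcinoma and its action on retinal (chromosome 7, 134527567 to 134541412), had 111 counts with HD and 13 with DMSO. That is 2.73 CPM with HD and 0.340 CPM with DMSO, a ratio of 8.01 (4.50 to 15.5), and the wide interval comes from the 13 counts. AKR1B1, aldose reductase, which turns glucose into sorbitol (chromosome 7, 134442350 to 134459239), had 343 counts with HD and 344 with DMSO. At 8.43 CPM with HD and 9.00 CPM with DMSO its ratio was 0.936 (0.804 to 1.09), a difference within counting error. AKR1B10 relative to AKR1B1, free of scaling, was 8.56-fold higher with HD (4.73 to 15.5).

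AKR1B15, a close copy of AKR1B10 that also acts on retinal and steroids (chromosome 7, 134549110 to 134579869), had 2 counts with HD and 1 with DMSO. Its ratio of 1.88 has an interval of 0.0977 to 111, so no direction was detectable at this depth. The coding sequences of AKR1B10 and AKR1B15 were 92.2% identical and shared 17 windows of 100 bases (2.00%). Their sum of 113 counts with HD and 14 with DMSO gave a ratio of 7.58 (4.33 to 14.3). The nearest flanking genes were closer to 1. SLC35B4, a nucleotide sugar transporter, was at 28.2 CPM with HD and 28.4 CPM with DMSO, a ratio of 0.991 (0.912 to 1.08), and BPGM, a red cell glycolysis enzyme, had a ratio of 1.06 (0.920 to 1.23).

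The remaining 3 genes have broad or liver-specific tasks. AKR1A1, the general aldehyde reductase (chromosome 1, 45550826 to 45570049), had 11118 counts with HD and 9106 with DMSO, or 273 CPM with HD and 238 CPM with DMSO. Its ratio was 1.15 (1.11 to 1.18), a small difference that exceeds counting error only; an interval wholly above 1 was found in 37.8% of all genes. AKR7A2, which reduces succinic semialdehyde and aflatoxin aldehyde (chromosome 1, 19302708 to 19312146), had 1251 counts with HD and 1326 with DMSO, or 30.7 CPM with HD and 34.7 CPM with DMSO, a ratio of 0.886 (0.819 to 0.957). AKR1D1, the steroid reductase that sets the bent ring shape of bile acids (chromosome 7, 138076459 to 138118305), had 406 counts with HD and 428 with DMSO. At 9.97 CPM with HD and 11.2 CPM with DMSO its ratio was 0.890 (0.775 to 1.02), which includes 1.

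Between genes, levels were compared per length with the deposited FPKM values. AKR1A1 was the highest in both libraries, at 208 FPKM with HD and 182 FPKM with DMSO. AKR1C2 was at 59.8 FPKM with HD and 17.1 FPKM with DMSO, and AKR1C1 at 38.2 FPKM with HD and 11.0 FPKM with DMSO. AKR7A2 was at 20.1 FPKM with HD and 22.8 FPKM with DMSO. In FPKM, AKR1C2 and AKR1C1 came right after AKR1A1 with HD, whereas with DMSO AKR7A2 came before them. AKR1B1 was at 5.37 FPKM with HD and 5.76 FPKM with DMSO. AKR1D1 was at 3.84 FPKM with HD and 4.33 FPKM with DMSO. AKR1C3 was at 2.38 FPKM with HD and 3.93 FPKM with DMSO. In FPKM these 3 held the fifth to the seventh place in both libraries. AKR1B10 was at 1.75 FPKM with HD and 0.219 FPKM with DMSO, and AKR1C4 at 1.60 FPKM with HD and 2.62 FPKM with DMSO. AKR1B10 was thus listed above AKR1C4 with HD and below it with DMSO, and AKR1B15 came last in both, at 0.0275 FPKM with HD and 0.0147 FPKM with DMSO.

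**Figure D3:**
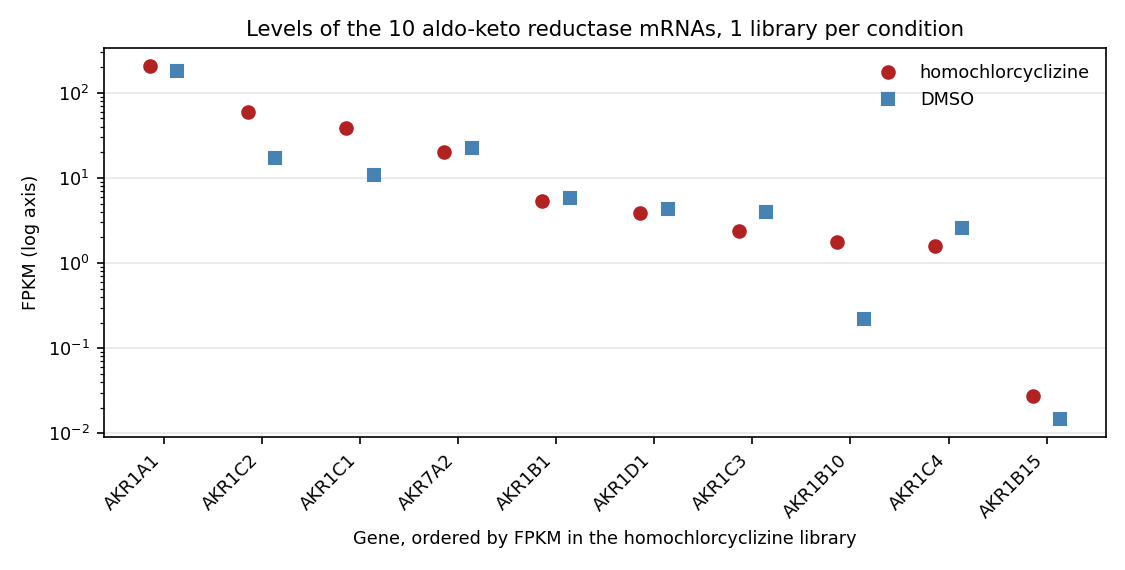
FPKM (log axis) of the 10 genes in the HD library (circles) and the DMSO library (squares), ordered by level with HD. AKR1C1, AKR1C2 and AKR1B10 show wide gaps with HD above DMSO, AKR1B15 rests on 3 counts in all, and the other 6 pairs lie within 2-fold of each other.

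Parts of this order depend on the length used. The counts and FPKM imply that the authors' lengths were 6543 bases for AKR1C1 and 3137 for AKR1C2, while both coding sequences have 969 bases. Per kb of coding length AKR1C1 stood above AKR1C2 in both libraries, at 258 against 194 CPM per kb with HD and at 73.8 against 55.1 CPM per kb with DMSO. On that scale both stood above AKR7A2 in both libraries, since AKR7A2 was at 28.5 CPM per kb with HD and 32.2 CPM per kb with DMSO, so the change of order seen in FPKM was not found. AKR1D1 then stood above AKR1B1, at 10.2 against 8.89 CPM per kb with HD and 11.5 against 9.50 CPM per kb with DMSO. AKR1B10 stood above AKR1C3 with HD, at 2.88 against 2.79 CPM per kb. These levels rest on 111 against 110 counts, a difference within counting error. Which length fits the mRNAs in these cells was not tested. Ratios between libraries do not depend on it.

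AKR1B10 had the 16th largest ratio of 12353 genes, AKR1C2 the 126th and AKR1C1 the 128th. The rank of AKR1B10 rests on 13 counts with DMSO and on a level filter passed only through the HD library. The AKR1C pair was therefore within the upper 1.04% of ratios. Counted from the lowest ratio, AKR1C3 ranked 1241 and AKR1C4 ranked 1298, so neither was among the most extreme. These ranks describe how far each gene lay from the rest in this pair of libraries.

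**Figure D4:**
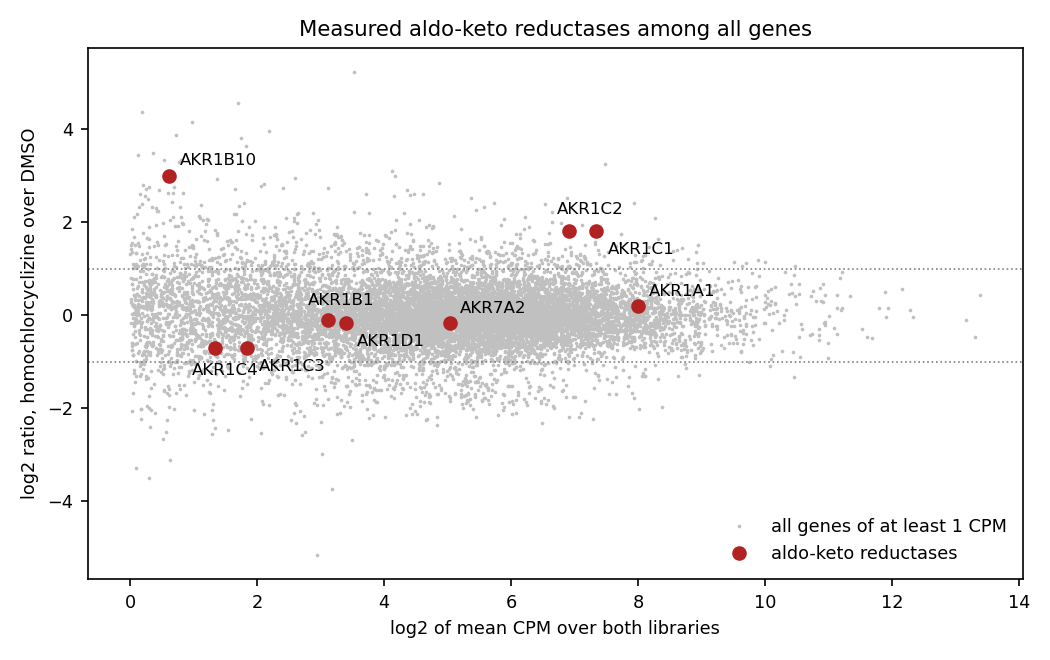
The log2 ratio of HD over DMSO against the log2 of mean CPM for all 12353 genes of at least 1 CPM (grey) and the 9 measured aldo-keto reductases (red). Dotted lines mark 2-fold; AKR1C1 and AKR1C2 lie above the upper line at 161 and 121 CPM, and AKR1B10 does so at 1.53 CPM, where ratios scatter more.

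Genes of linked pathways were taken from 8 lists chosen, like the 10 genes, with earlier results known. Other members of the superfamily were weakly expressed. Of 6 found, KCNAB1 and KCNAB2, beta subunits of potassium channels, passed the level filter, with ratios of 0.855 (0.638 to 1.15) and 0.847 (0.708 to 1.01). AKR7A3, an aflatoxin aldehyde reductase, had 3 counts with HD and 16 with DMSO, a ratio of 0.176 (0.0329 to 0.615).

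Of 21 genes of the NRF2 system outside the family, 4 were higher and none lower, against 5.88% higher and 5.17% lower over all genes. Ratios over 1 were found in 14 and below 1 in 7, against 6046 and 6307 of all 12353 genes. The log2 ratios of the 21 genes had a median of 0.33. MAFG, a small MAF partner of NRF2, was at 93.1 CPM with HD and 43.5 CPM with DMSO, a ratio of 2.14 (2.02 to 2.27). SLC7A11, the cystine transporter, had a ratio of 2.12 (2.05 to 2.19) and ABCC3, an export pump for conjugates, one of 2.11 (1.95 to 2.28). HMOX1, heme oxygenase, had a ratio of 2.42 (2.30 to 2.54). The other genes of this list named below were picked with their values in view. NFE2L2, which encodes NRF2, and its inhibitor KEAP1 had ratios of 0.959 (0.932 to 0.986) and 0.967 (0.921 to 1.02), and the quinone reductase NQO1 one of 1.28 (1.25 to 1.31). The lowest ratios of the list were those of GSTM3 at 0.535 (0.396 to 0.719), PIR at 0.716 (0.673 to 0.761) and GSTA1 at 0.745 (0.642 to 0.865). Each gene of the list named here lay below the ratio of AKR1C1 and AKR1C2.

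NADPH is the cofactor of these reductases. Of 15 measured genes on a list of NADPH production and linked steps, 2 were higher and 1 was lower. Over all genes 5.88% were higher and 5.17% lower. The median log2 ratio of the list was 0.09. The list also holds enzymes that do not make NADPH themselves, such as PGLS, TKT and TALDO1. ME3, a mitochondrial malic enzyme, had a ratio of 2.61 (2.10 to 3.26). MTHFD1, a folate enzyme, was at 42.8 CPM with HD and 92.9 CPM with DMSO, a ratio of 0.460 (0.434 to 0.488). PGLS, an enzyme of the pentose phosphate pathway, had a ratio of 1.65 (1.54 to 1.78).

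The short-chain dehydrogenases hold the other large group of carbonyl reductases. Of 15 measured, 3 were higher and none lower, against 5.88% higher and 5.17% lower over all genes. The median of -0.25 and the mean of 0.15 differ in sign, and with no filter on low counts the median was 0.0401. CBR3, a carbonyl reductase, had 82 counts with HD and 13 with DMSO, or 2.01 CPM with HD and 0.340 CPM with DMSO, a ratio of 5.92 (3.28 to 11.6). It passed the level filter only through the HD library. DHRS3, which reduces retinal, was at 70.2 CPM with HD and 32.8 CPM with DMSO (ratio 2.14, 2.01 to 2.29), and DHRS7 had a ratio of 2.05 (1.96 to 2.14). DCXR, the xylulose reductase, was at 44.9 CPM with HD and 81.4 CPM with DMSO, a ratio of 0.552 (0.521 to 0.585).

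**Figure D5:**
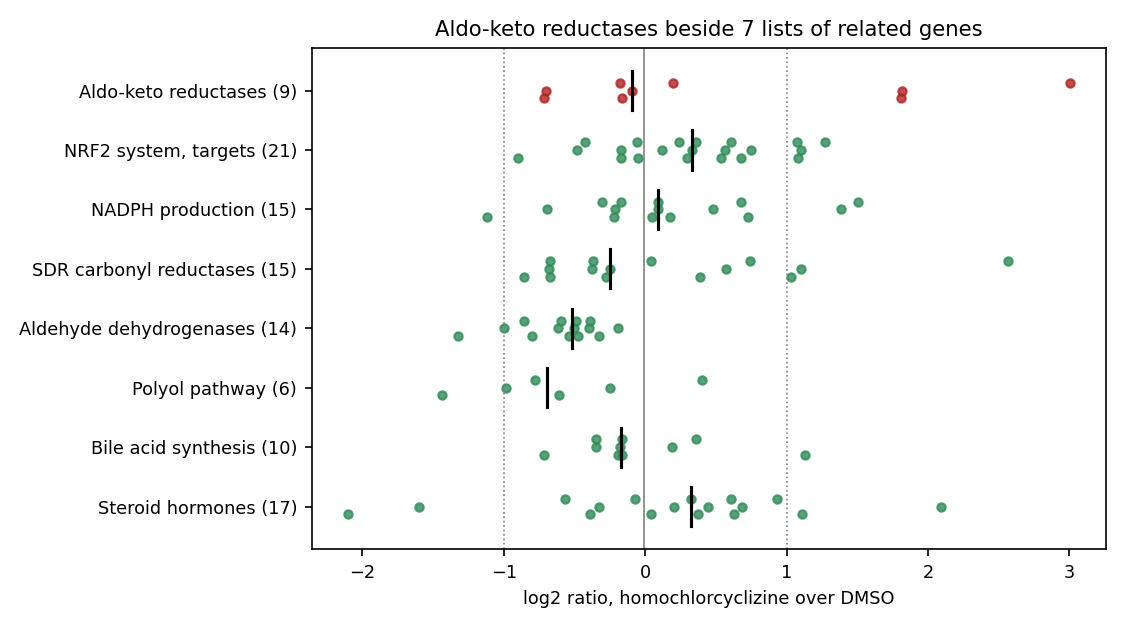
The log2 ratio of HD over DMSO for each measured gene of the aldo-keto reductases (red) and of 7 linked lists (green), with the number measured in brackets and a black bar at the list median. The grey line is the median of all genes (-0.01), dotted lines mark 2-fold, and the aldo-keto reductases split into 3 genes beyond 2-fold and 6 within it.

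In bile acid synthesis, where AKR1D1 and AKR1C4 act in sequence on the steroid ring, 1 of 10 measured genes was higher and none lower. Over all genes 5.88% were higher and 5.17% lower. The list median was -0.17. The higher one was BAAT, which conjugates bile acids to amino acids, at 15.6 CPM with HD and 7.14 CPM with DMSO. SLC27A2, which activates fatty and bile acids, had a ratio of 0.609 (0.562 to 0.661), AMACR, a racemase of the side chain, one of 1.28 (1.23 to 1.34) and CYP39A1, an oxysterol hydroxylase, one of 0.785 (0.691 to 0.892). AKR1D1 had 5.21 counts per count of AKR1C4 with HD and 3.60 with DMSO, a ratio of 1.45 (1.05 to 1.99).

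In the polyol pathway, which AKR1B1 opens, none of 6 measured genes was higher and 1 was lower. Over all genes 5.88% were higher and 5.17% lower. The list median was -0.69, and 5 of the 6 lay below a ratio of 1, against 6307 of all 12353 genes. GLYCTK, glycerate kinase, was at 29.3 CPM with HD and 79.5 CPM with DMSO, a ratio of 0.369 (0.344 to 0.394). SORD, which oxidises the sorbitol made by AKR1B1, was at 79.7 CPM with HD and 137 CPM with DMSO, a ratio of 0.584 (0.559 to 0.610). TKFC, the dihydroxyacetone kinase, had a ratio of 0.657 (0.621 to 0.695).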

How the data were processed

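RNA was sequenced from 2 cultures of Huh7 cells, 1 with HD and 1 with DMSO. Per the labels' protocols, mRNA was purified with polyT, fragmented, copied to cDNA and amplified by PCR. The authors deposited raw counts per gene and, for each library, FPKM values scaled to gene length and library total. The build was hg38 per the submitters' processing notes, and no source used here states the aligner, counter, strand setting or annotation. FPKM ratios differed from count ratios by at most 3.13e-05%, so both hold 1 measurement.

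Ratios were taken between counts scaled with TMM factors (edgeR 4.0.16, R 4.3.3) with no prior count. Intervals were exact (Clopper-Pearson on the summed count), and ratios of ratios had log intervals. Both cover counting error only, since each group has 1 library. PCR copies are not independent molecules, so the intervals can be too narrow even for counting error. At 3 counts, the limit that a count of 0 allows, the level was 0.0737 CPM with HD and 0.0785 CPM with DMSO. With 1 library per group no p-value was computed. The ratio script was tested on simulated data. Python 3.11.15, scipy 1.17.1 and Biopython 1.88 were used. DESeq2 1.42.0 gave alternative size factors.

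The members and lists were chosen with earlier results of these data known. Named genes were all 10 members and, per list, up to 4 genes with the largest absolute log2 ratio, with flanking genes of 2 clusters. Some genes that this rule names are not reported here. Coordinates and upstream sequences are RefSeq's on GRCh38.p14, and coding sequences are from the GENCODE transcript with the longest coding sequence. Alternatives covered scaling, filter, prior count, threshold, FPKM and length.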

Additional observations from a re-analysis of the deposited data

How the results depend on the processing

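Library totals, DESeq2 size factors and upper quartile factors shifted all log2 ratios by -0.01, 0.01 and 0.03, and under these and a prior count of 1 the ratios of the members and of the paralog sums stayed inside their counting intervals, the counts of members higher and lower did not change, and the list medians kept their sign. With a mean of at least 5 CPM, AKR1B10 left and 2 members were higher, while over all genes 486 were higher and 491 lower. With no filter, 1212 genes were higher and 962 lower, and the medians of the short-chain dehydrogenase and steroid hormone lists changed sign to 0.0401 and -0.0745, since genes with few counts entered. At a 1.5-fold threshold, 1744 of 12353 genes were higher and 1740 lower. Of the members, 2 were then lower (AKR1C3 and AKR1C4) and 3 higher. With FPKM and a pseudocount of 0.1 the sum of the 4 AKR1C genes had a ratio of 2.94, since FPKM weights each by its length. The level of AKR1C1 over AKR1C2 was 0.639 with HD and 0.643 with DMSO in FPKM, and 1.33 with HD and 1.34 with DMSO per coding length, an alternative chosen after seeing the data. No paired analysis was possible because each group has 1 library. Depth limits AKR1B15, AKR1E2 and AKR1C8, whose intervals or floors cover both directions.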

Other observations

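Genes named as aldehyde dehydrogenases, many of which oxidise aldehydes, had ratios below 1 in the list examined. Of its 14 measured genes, 14 lay below 1, against 6307 of all 12353 genes. Only ALDH6A1 was at least 2-fold lower, against 5.17% over all genes. The median log2 ratio of the list was -0.52, against -0.01 over all genes. ALDH6A1, an enzyme of valine breakdown, was at 14.9 CPM with HD and 37.4 CPM with DMSO, a ratio of 0.400 (0.363 to 0.440). ALDH7A1, of lysine breakdown, was at 68.6 CPM with HD and 137 CPM with DMSO, a ratio of 0.500 (0.478 to 0.524) just short of 2-fold. ALDH1L2, a mitochondrial folate enzyme of the same family, was counted with the list of NADPH production. It went the other way, at 5.58 CPM with HD and 3.48 CPM with DMSO, a ratio of 1.60 (1.29 to 2.00). ALDH5A1, which oxidises the succinic semialdehyde that AKR7A2 reduces, and ALDH3A1 had ratios of 0.574 (0.523 to 0.630) and 0.552 (0.340 to 0.884).

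Among genes of steroid hormone metabolism, 2 of 17 measured were higher and 2 lower, against 5.88% and 5.17% over all genes. The list had a median of 0.32 and a mean of 0.14, and with no filter on low counts the median was -0.0745. HSD17B14, a steroid dehydrogenase, was at 3.46 CPM with HD and 0.811 CPM with DMSO, a ratio of 4.27 (2.88 to 6.52), and HSD17B12, which also elongates fatty acids, was at 322 CPM with HD and 149 CPM with DMSO (ratio 2.16, 2.10 to 2.23). SULT1E1, the estrogen sulfotransferase, was at 2.26 CPM with HD and 9.71 CPM with DMSO, a ratio of 0.233 (0.183 to 0.293). HSD11B2, which inactivates cortisol, was at 0.762 CPM with HD and 2.30 CPM with DMSO, a ratio of 0.331 (0.212 to 0.503). HSD17B14 passed the level filter only through the HD library, and HSD11B2 only through the DMSO library. No test of a condition is behind these values, which compare 2 libraries.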
